A study of Saccharomyces cerevisiae with 6 samples.

Results

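Among the 5449 Saccharomyces cerevisiae genes measured, 142 are open reading frames (ORFs) that have a systematic name ending in a hyphen and a letter, such as YER053C-A, and no standard gene name. They were picked by the form of that name in the platform annotation, with 1 probe set for each ORF and the brightest one where an ORF had several. All 142 are also unnamed in the RefSeq annotation of assembly R64, which supplied lengths and neighbouring genes. Their annotated length runs from 51 to 5410 bases with a median of 183 bases, so most are small ORFs and a few are long. Affymetrix yeast arrays compared 3 samples of a strain carrying a deletion of GCR2 with 3 samples of FY4, a wild-type laboratory strain of the S288C lineage. Both strains grew exponentially on glucose minimal medium, and total RNA was labelled with biotin. The parent strain of the deletion samples is not named. Nothing says whether replicates were separate cultures, so p-values measure only the spread between these arrays, which may be technical.

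A hyphenated suffix marks an ORF that was added to the yeast gene catalogue after the genes around it had been numbered. Many such ORFs are short and have no known product, and some may not be translated. The long ones are mostly reading frames of Ty elements, retrotransposons that copy themselves through an RNA intermediate. The Gag frame codes for the shell of the virus-like particle, and the Pol frame for protease, integrase and reverse transcriptase. Gcr2, the product of the deleted gene, works with the DNA-binding protein Gcr1 to activate transcription of glycolytic genes, and Gcr1 sites are also known from Ty elements.

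GCR2 itself had log2 intensities of 4.69, 4.42 and 4.66 on the deletion arrays, against 11.09, 11.06 and 11.17 on the wild-type arrays. It was under background on every deletion array, and the fall was at least 27.5-fold (limma adjusted p = 1.01e-06). Background here is the 95th percentile of probe sets for another yeast species on the same array, between 6.12 and 6.60 on the log2 scale. The same percentile of the mean levels of those probe sets over the 6 arrays was 6.26. It is called the mean background, and genes sorted by mean level are set against it. Control probe sets differed between the groups: the poly-A spike-in controls averaged 7.35 ± 0.24 on deletion arrays and 8.22 ± 0.40 on wild-type arrays, and the 18S ribosomal RNA controls 12.95 ± 0.15 on deletion arrays and 14.10 ± 0.08 on wild-type arrays (SD, n = 3 each). Markers of mating type and sporulation were also counted, and are to be read beside the 22.5% called among all genes. Of 7 mating type a genes 2 rose (ASG7 by 0.74 and BAR1 by 0.22) and 5 were not called, with a median of 0.07. Of 4 mating type alpha genes 1 rose (STE3, the a-factor receptor, by 0.91) and 3 were not called, with a median of 0.01. Among those 4, MF(ALPHA)1 at -0.32 and MF(ALPHA)2 at -0.20 had lower means in the deletion. Of 6 sporulation genes 3 rose and 2 fell, among them HOP1 at 1.42 and SPS4 at -1.63. The part of the controls and of these markers in the results below was not tested. In bulk samples, fewer cells that express a gene and less RNA per cell cannot be told apart.

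At a limma adjusted p under 0.05 the unnamed suffixed ORFs moved down more often than up. At one under 0.01, or with a 2-fold minimum, more of them rose than fell. In the deletion strain 28 of 142 fell and 12 rose at a limma adjusted p under 0.05, and 102 did not pass. The adjustment covers all 5449 genes. With arrays centred on the poly-A controls instead, 90 of the ORFs rose and 1 fell, against 4943 rises and 9 falls among all genes. Without that centring, falls made up 19.7% of these ORFs and 8.35% of all genes. Rises made up 8.45% of these ORFs and 14.1% of all genes, and either direction 22.5% of all genes. The median change was -0.15 on the log2 scale over the 142 ORFs and 0.02 over all genes. All 3 deletion arrays lay below all 3 wild-type arrays for 41 of the ORFs, or above them for 18, while over all genes such separation occurred for 18.1% downward and 27.1% upward.

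These counts depended on single arrays, as did those over all genes. Without deletion replicate 1, 8 ORFs fell and 7 rose (5.63% and 4.93%), against 3.36% and 5.51% of all genes. Without deletion replicate 2, 14 fell and 8 rose (9.86% and 5.63%), against 3.52% and 6.44% of all genes. Without deletion replicate 3, 8 fell and 6 rose (5.63% and 4.23%), against 3.06% and 4.39% of all genes. In these 3 settings the share of falls stayed above that of all genes, while the share of rises came close to it. Without wild-type replicate 1, 17 fell and 11 rose (12% and 7.75%), against 6.2% and 8.22% of all genes. Leaving out deletion replicate 1 and wild-type replicate 3 together left 12 falls and 6 rises (8.45% and 4.23%), against 2.37% and 3.65% of all genes.

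These ORFs were dim. Their median level was 7.56 on the log2 scale, against 11.09 for all genes, and 31 of them (21.8%) were under background on all 6 arrays, against 1.87% of all genes. A total of 90 were above background on every array. Their replicates also spread more widely: the median SD was 0.14 in the deletion group and 0.18 in the wild-type group, against 0.06 and 0.09 over all genes. Of the 142, 17 were read by probe sets of the types _s_at or _x_at, which can bind transcripts of several related sequences; 3 of these rose and 3 fell.

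**Figure D1:**
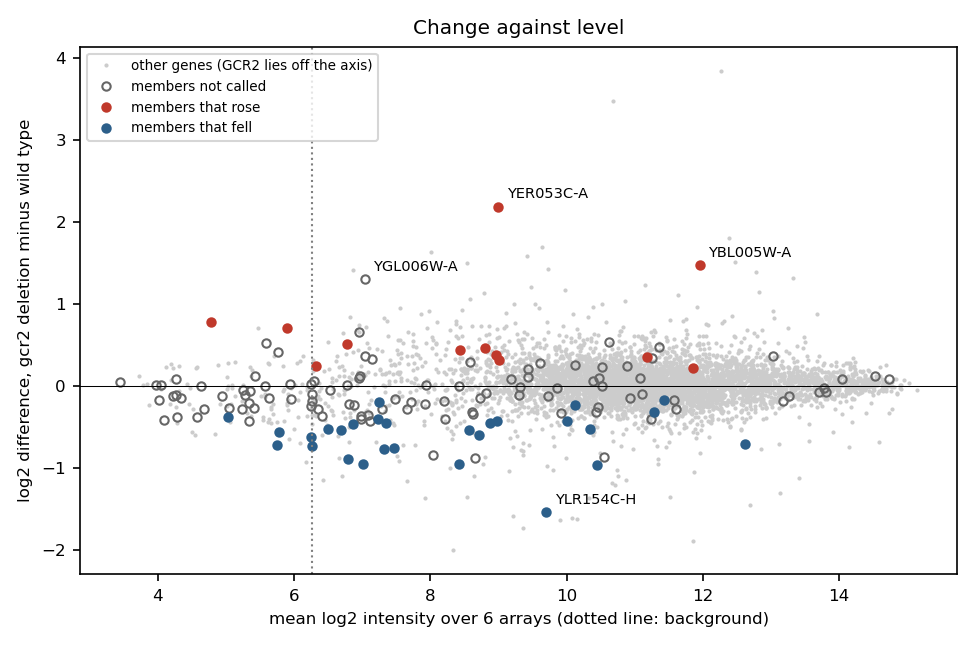
Log2 difference (gcr2 deletion minus wild type, y axis) against mean log2 intensity over the 6 arrays (x axis), with unnamed suffixed ORFs as large circles (red rose, blue fell, open grey not called), other genes as small grey dots, and the dotted line at the mean background of 6.26. Most blue points lie between background and a level of 12, YER053C-A stands alone at 2.18, and YGL006W-A at 1.30 is not called.

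YER053C-A, an ORF of 114 bases on chromosome V with no known role given in the sources used here, had the largest rise of all 142. Its log2 intensity was 9.97, 10.001 and 10.30 on deletion arrays, against 7.79, 8.35 and 7.60 on wild-type arrays. The lowest deletion array thus lay well above the highest wild-type array. The change was 2.18 (SE 0.20), or 4.54-fold, with a limma adjusted p of 0.0020. The call held under all 18 alternatives run (changes of the threshold aside). PIC2, which codes for a mitochondrial carrier of phosphate and copper and lies next to it on the same strand, rose by 0.72 (adjusted p = 0.00996). GIP2, a putative regulatory subunit of the Glc7 phosphatase on the other side, was at 0.21 and was not called (adjusted p = 0.27).

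YBL005W-A, the Gag frame of a Ty1 element on chromosome II, was 2nd. Its level was 12.80, 12.74 and 12.54 on deletion arrays, against 11.43, 10.94 and 11.29 on wild-type arrays, with no overlap. It rose by 1.48 (SE 0.14), or 2.78-fold, with a limma adjusted p of 0.0021, and kept its call under all 17 alternatives that could test it. The probe set is of the _s_at type, so other Ty copies may contribute to it. The neighbouring gene PDR3, a regulator of multidrug resistance, was at 0.17 and was not called (adjusted p = 0.057). No other unnamed suffixed ORF rose by more than 2-fold.

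YMR315W-A and YOR381W-A were both at the bottom of the scale and both lay beside genes that rose. YMR315W-A was at 5.14, 5.08 and 5.28 on deletion arrays and at 4.54, 4.38 and 4.24 on wild-type arrays. All 6 values were under background, so no fold is given, although the groups did not overlap and the difference of 0.78 passed the test (adjusted p = 0.0043). The like-numbered gene YMR315W on the same strand rose by 0.61 (adjusted p = 0.00055), while DIA1 on the other side was at 0.02.

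YOR381W-A was at 6.34, 6.27 and 6.14 on deletion arrays and at 5.25, 5.78 and 5.62 on wild-type arrays. It rose by 0.70 (adjusted p = 0.020), a call lost without any 1 of the 3 deletion arrays (adjusted p up to 0.071). It was above background on 1 deletion array and on no wild-type array. It sits between FRE3, a ferric reductase gene that rose by 0.33, and FIT2, a gene for a cell wall mannoprotein that helps retain iron siderophores, which rose by 1.42 (adjusted p = 0.022).

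Of the 12 rises, 6 were among the 18 ORFs that lie within the 10 outermost annotated genes of a chromosome arm, a grouping chosen after values were seen. In those 18 ORFs 6 rose and 2 fell, with a median of 0.12. In the other 124 ORFs 6 rose and 26 fell, with a median of -0.16. Outermost genes that are not unnamed suffixed ORFs had 47 rises and 27 falls among 206, with a median of 0.10. No test of this difference was made.

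YER188C-A, of 300 bases, was the only one of these 6 to keep its call under all 18 alternatives. It measured 8.67, 8.61 and 8.69 on deletion arrays, against 8.13, 8.28 and 8.26 on wild-type arrays. It rose by 0.44 (SE 0.05, adjusted p = 0.0053). YOR394C-A rose by 0.32 (adjusted p = 0.0091; 0.056 without deletion replicate 1 and wild-type replicate 3 together), with levels of 9.23, 9.09 and 9.17 on deletion arrays and 8.84, 8.82 and 8.87 on wild-type arrays. Its neighbour on the opposite strand, PAU21 of the seripauperin family, was at 0.00, under background in both groups.

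The other 4 rises near chromosome ends lost their calls in more of the alternatives. YGL258W-A rose by 0.51 (adjusted p = 0.016, and 0.073 at most without deletion replicate 2 or 3). It was above background on 3 deletion arrays and 2 wild-type arrays, at means of 7.03 and 6.53. YLL066W-B rose by 0.38 (adjusted p = 0.015; 0.058 at most without deletion replicate 1 or 3), on a probe set of the _s_at type. YHL048C-A rose by 0.46 (adjusted p = 0.046), and its neighbour COS8, of a family of membrane protein genes near telomeres, rose by 0.41. YHR214C-D, named after its values were seen, rose by 0.24 (adjusted p = 0.048). It was near background, at means of 6.45 in the deletion and 6.21 in wild type. Only 2 deletion arrays and 1 wild-type array were above background for it. The calls of YHL048C-A and YHR214C-D were each lost without any 1 array of either group, at adjusted p up to 0.12 and 0.14.

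YHR175W-A, of 150 bases and also named after its values were seen, showed a small but tight rise. It was at 11.99, 11.97 and 11.95 on deletion arrays, against 11.77, 11.76 and 11.73 on wild-type arrays. The change of 0.22 (SE 0.04, adjusted p = 0.013) was lost without any 1 deletion array (adjusted p up to 0.058). CTR2, the vacuolar copper transporter gene beside it, rose by 0.34 (adjusted p = 0.036).

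**Figure D2:**
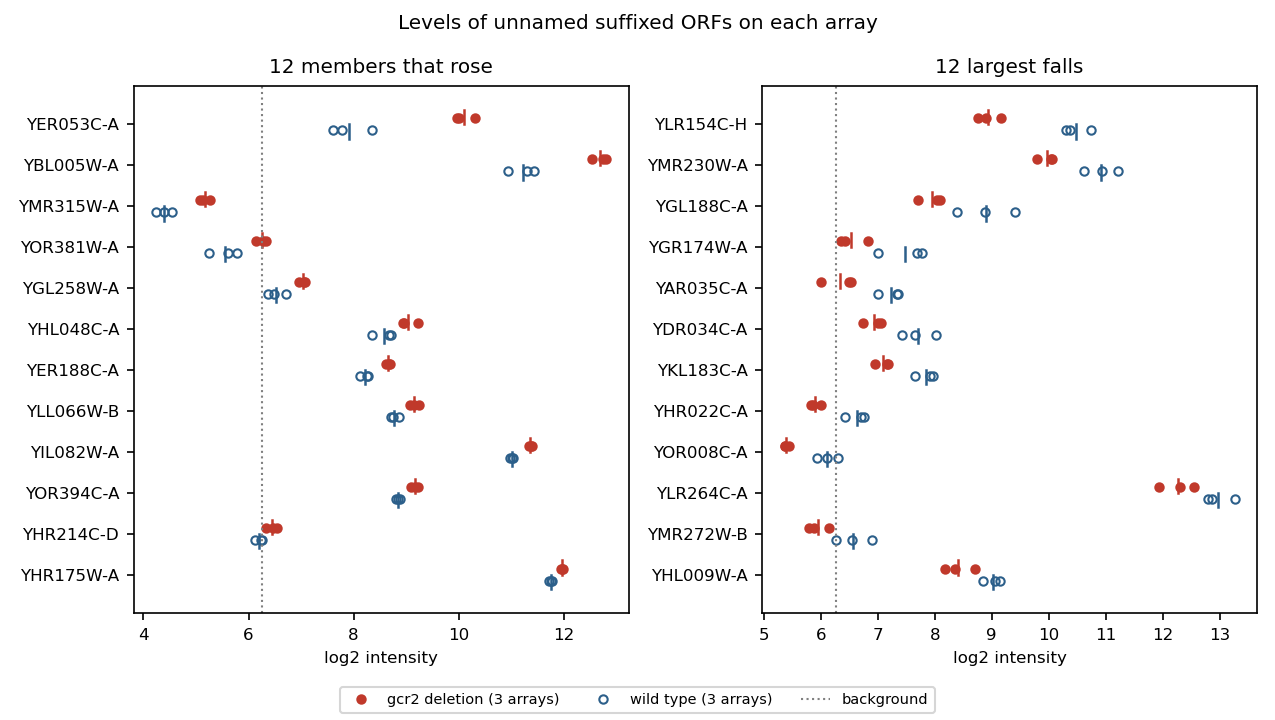
Log2 intensity on each array (x axis) for the 12 unnamed suffixed ORFs that rose (left) and the 12 largest falls (right), with deletion arrays as filled red points above wild-type arrays as open blue points, vertical ticks at group means (n = 3) and the dotted line at the mean background of 6.26. In every row shown the points of the groups do not overlap, and YMR315W-A and YOR008C-A stay under the background of each array in both groups.

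Of the 12 ORFs longer than 800 bases, 11 are Gag or Pol frames of Ty elements and the other is YEL076C-A. In all 2 of them rose and 1 fell, so 25% were called, against 22.5% of all genes. The other 9 were not called, and the median was -0.03. The 11 Ty frames ranged in mean level from 8.43 to 14.53 on the log2 scale. All of the 12 except YGR109W-B were read by _s_at probe sets, so copies of an element cannot be told apart. Besides YBL005W-A, the rise was in YIL082W-A, the Gag-Pol frame of a Ty3 element. It measured 11.39, 11.37 and 11.34 on deletion arrays, against 11.01, 10.98 and 11.03 on wild-type arrays, and rose by 0.36 (SE 0.04, adjusted p = 0.0035).

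The frames of the other Ty3 copy did not pass the test. YGR109W-A had a change of 0.00 (adjusted p = 0.99), and YGR109W-B had 0.25 (adjusted p = 0.14). The fall was in YHL009W-A, the Gag frame of a Ty4 element, with 8.35, 8.70 and 8.18 on deletion arrays against 9.05, 8.85 and 9.15 on wild-type arrays. It changed by -0.60 (SE 0.15, adjusted p = 0.034), a call lost without deletion replicate 1 or 3 or without wild-type replicate 1 or 3 (adjusted p up to 0.11). Its Gag-Pol partner YHL009W-B was at -0.33 (adjusted p = 0.15), with groups that did not overlap.

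Among the other Ty1 and Ty2 frames none was called. YBL100W-A, a Gag frame, was at 13.20, 13.37 and 13.08 on deletion arrays, against 12.93, 12.66 and 12.98 on wild-type arrays, a difference of 0.36 that did not pass (adjusted p = 0.066), although the groups did not overlap. The Gag-Pol frame YBL100W-B of the same element was at -0.08 (adjusted p = 0.70). The Gag-Pol frames YDR316W-B, YDR261W-B and YDR261C-D stood at 0.12, -0.07 and -0.12. The difference between Gag and Gag-Pol frames was not tested.

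**Figure D3:**
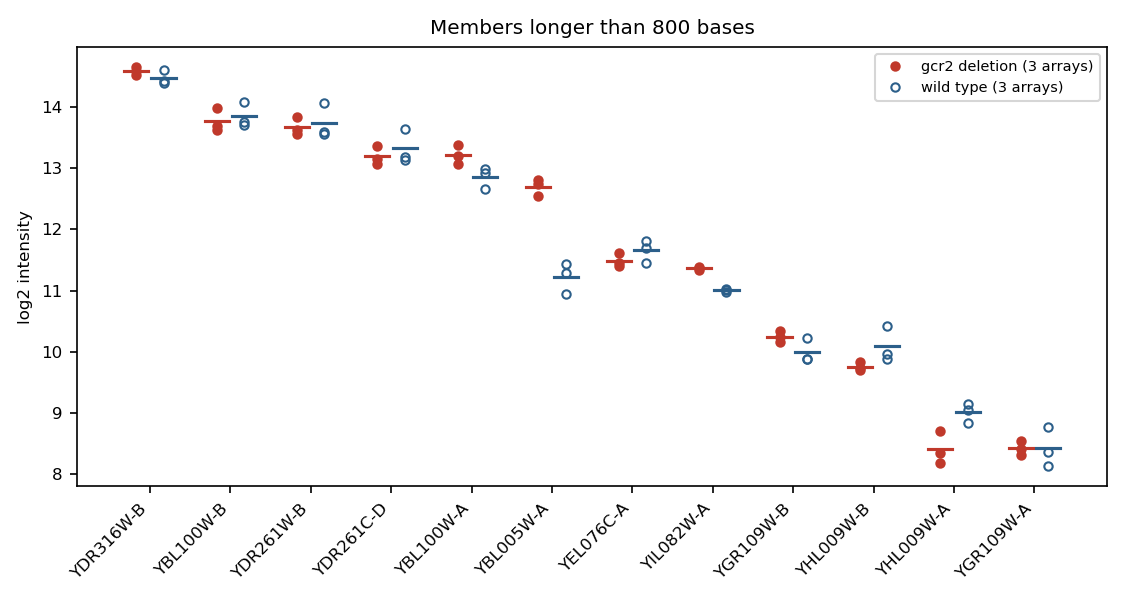
Log2 intensity on each array (y axis) of the 12 unnamed suffixed ORFs longer than 800 bases (x axis, ordered by mean level), with deletion arrays as filled red points left of wild-type arrays as open blue points and horizontal lines at group means (n = 3). The groups are furthest apart for YBL005W-A, whose deletion arrays lie between 12.54 and 12.80, and run close together for the bright Gag-Pol frames above 13.

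The largest fall was in the ribosomal DNA. YLR154C-H, of 132 bases on chromosome XII, overlaps a 5S ribosomal RNA gene in the annotation and was read by an _s_at probe set. It was at 8.75, 8.89 and 9.17 on deletion arrays, against 10.38, 10.30 and 10.74 on wild-type arrays, without overlap. The change was -1.54 (SE 0.15), or 2.90-fold lower, with a limma adjusted p of 0.0025, and it was the only fall of more than 2-fold. The call stayed under the 17 alternatives run, but centring on the poly-A controls reduced the change to -0.66 (adjusted p = 0.038). The array's own 25S ribosomal RNA controls were at 11.94 ± 0.48 on deletion arrays and 13.44 ± 0.13 on wild-type arrays (SD, n = 3 each), and like the 18S controls they moved in the same direction; their part in the fall was not tested. The like-numbered RNH203, coding for a subunit of ribonuclease H2, was at 0.58 and not called (adjusted p = 0.27). RNH203 is not adjacent to YLR154C-H. The neighbour ASP3-1, an asparaginase gene repeated in that region, fell by 0.25.

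The other ORF of the ribosomal DNA region, YLR157W-E, was at 0.24 on its _s_at probe set and was not called. Its _at probe set, under background on every array, went the other way, at -1.65 (limma adjusted p = 0.0039).

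Falls were frequent beside ribosomal protein genes. This grouping was also chosen after values were seen, and the direction of the falls named from here on reversed or shrank when arrays were centred on the poly-A controls. Of 12 unnamed suffixed ORFs next to a ribosomal protein gene 6 fell and 0 rose, with a median of -0.47 against -0.12 for the remaining 130. Falls made up 50% of the 12, 16.9% of the remaining 130 and 8.35% of all genes. The 12 were also short, with a median length of 129 bases, and 31.9% of all the ORFs of up to 150 bases fell. Position and length were not told apart. The 11 measured ribosomal protein genes beside these ORFs were bright, at mean levels of 13.33 to 14.73. Of these genes 0 were called by limma, with changes from -0.14 to 0.18.

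YMR230W-A, of 189 bases beside RPS10B, was at 10.06, 9.80 and 10.04 on deletion arrays, against 10.62, 10.94 and 11.21 on wild-type arrays. It changed by -0.96 (SE 0.16, adjusted p = 0.012), and RPS10B by -0.10 (adjusted p = 0.50). YGL188C-A, beside RPS26A, was at 8.03, 8.08 and 7.71 on deletion arrays, against 8.88, 8.39 and 9.41 on wild-type arrays. Its change of -0.95 (SE 0.26, adjusted p = 0.046) was lost without any 1 deletion array or without wild-type replicate 1 or 3 (adjusted p up to 0.15), while RPS26A stood at 0.18. Both ORFs were separated between the groups, and both partners were not called.

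YLR264C-A, opposite RPS28B, was the brightest called ORF of this group. It was at 11.94, 12.54 and 12.31 on deletion arrays, against 12.81, 12.86 and 13.26 on wild-type arrays. The change of -0.71 (SE 0.19, adjusted p = 0.043) was lost without any 1 of the 6 arrays (adjusted p up to 0.12). YHL015W-A beside RPS20, YBL071C-B beside RPS8A and YNL162W-A beside RPL42A fell by 0.56, 0.52 and 0.43. YHL015W-A was under background on every array, and the call of each of these 3 was lost without deletion replicate 1 or 3 (adjusted p up to 0.083, 0.087 and 0.073). YHL015W-A also lost it without wild-type replicate 1, and YBL071C-B and YNL162W-A without deletion replicate 2. Among the 6 that were not called, YOL038C-A opposite RPP2A, a gene for a ribosomal stalk protein, was at -0.84, and YJL136W-A next to RPS21B was the only one with a higher mean in the deletion, at 0.37.

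The rest of the 10 largest falls lay elsewhere. YGR174W-A, of 87 bases on an _x_at probe set, was at 6.42, 6.36 and 6.82 on deletion arrays, against 7.77, 7.69 and 6.99 on wild-type arrays. It changed by -0.95 (adjusted p = 0.035), a call lost without any 1 deletion array or without wild-type replicate 1 or 2 (adjusted p up to 0.11). CBP4, an assembly factor of mitochondrial complex III opposite it, was at 0.06. YAR035C-A, of 81 bases near an end of chromosome I, was at 6.497, 6.0 and 6.53 on deletion arrays and 7.34, 7.01 and 7.35 on wild-type arrays. Its change of -0.89 (adjusted p = 0.018) was lost without wild-type replicate 1 (adjusted p = 0.053).

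YKL183C-A and YHR022C-A were steadier. YKL183C-A was at 6.94, 7.18 and 7.16 on deletion arrays, against 7.91, 7.65 and 7.97 on wild-type arrays, and fell by 0.75 (SE 0.11, adjusted p = 0.0076). YHR022C-A was at 5.86, 5.83 and 6.01 on deletion arrays, against 6.70, 6.76 and 6.42 on wild-type arrays. It was under background on every deletion array but above it on all 3 wild-type arrays. It fell by 1.24-fold or more, the bound that background allows (limma adjusted p = 0.0076). Each of these 2 calls was lost under 1 of 18 alternatives, centring on the poly-A controls. The like-numbered gene YHR022C fell too, by 0.48 (adjusted p = 0.0046).

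YMR272W-B showed the same pattern against background, with 5.88, 6.15 and 5.80 on deletion arrays and 6.90, 6.26 and 6.55 on wild-type arrays. The fall was at least 1.19-fold (adjusted p = 0.049), a call lost without any 1 deletion array or without wild-type replicate 1 or 3 (adjusted p up to 0.16). YOR008C-A, beside the cell wall sensor gene SLG1, was under background on all 6 arrays, at 5.44, 5.36 and 5.37 in the deletion and 6.29, 5.94 and 6.10 in wild type. Its difference of -0.72 passed the test (adjusted p = 0.0057), and SLG1 stood at -0.13 and was not called.

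YDR034C-A went against the gene it shares a number with. It was at 6.75, 7.05 and 7.002 on deletion arrays, against 8.02, 7.65 and 7.43 on wild-type arrays, and fell by 0.77 (adjusted p = 0.023; up to 0.077 without any 1 deletion array). LYS14, the activator of lysine biosynthesis genes, rose by 0.29 (adjusted p = 0.039). LYS14 is not adjacent to YDR034C-A.

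Further falls were named after their values were seen. YBR196C-A, of 150 bases, fell by 0.53 (adjusted p = 0.011; 0.0501 without deletion replicate 3, which ended the call), and the like-numbered PGI1, the glycolytic gene for phosphoglucose isomerase, fell by 0.44 (adjusted p = 0.0034). YCL021W-A, of 378 bases, fell by 0.32 (adjusted p = 0.013; up to 0.059 without deletion replicate 1 or 3). YPR159C-A was under background on every array, and its difference of -0.38 passed the test (adjusted p = 0.034; up to 0.12 without any 1 deletion array or wild-type replicate 3).

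The shortest ORFs held the largest share of falls. Among those of up to 150 bases 15 of 47 fell (31.9%) and 4 rose, with a median of -0.22. Among those of over 150 and up to 300 bases 11 of 76 fell (14.5%) and 6 rose, with a median of -0.14. Above 300 bases 2 of 19 fell and 2 rose, with a median of -0.08. Other genes of up to 300 bases, 120 in all, had 2 falls and 3 rises and a median of 0.05. Those other short genes were brighter, with a median level of 11.32 against 7.12 for the 123 short unnamed suffixed ORFs, and varied more, with a median SD of 0.20 in the deletion group and 0.45 in the wild-type group.

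Falls were then counted at matched levels. Between background and a mean level of 8, 11 of 38 unnamed suffixed ORFs fell (28.9%), against 26 of 191 other genes (13.6%). From 8 to 10 it was 6 of 30 against 8.16% of 821, and from 10 to 12 it was 6 of 27 (22.2%) against 8.09% of 2758. At or under background it was 4 of 37 against 9 of 90, and above 12 it was 1 of 10 against 102 of 1447 (7.05%). These shares are descriptions of the list, with no test of the difference.

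Genes that share only a part of the naming rule moved otherwise. Of 107 genes with a suffixed name and a standard name, 4 fell (3.74%) and 5 rose (4.67%), with a median of 0.02. Of 357 unnamed genes without a suffix, 37 fell (10.4%) and 68 rose (19.0%), with a median of 0.04. Neither set had more falls than rises, and the differences between the sets were not tested. The named suffixed genes had a median SD of 0.34 in the wild-type group, wider than the 0.18 of the unnamed ones.

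**Figure D4:**
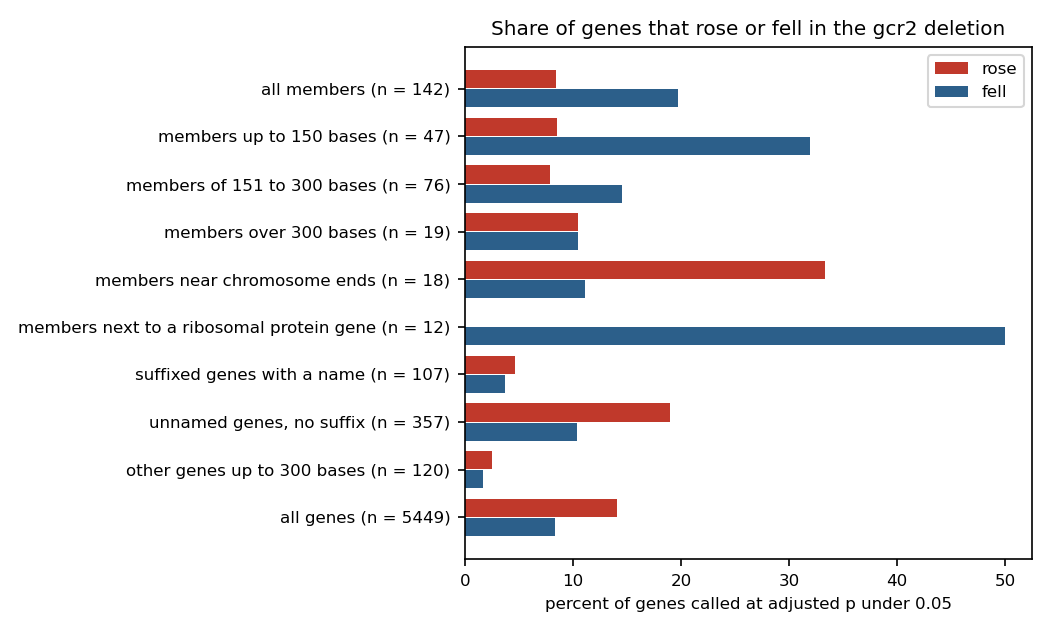
Percent of genes that rose (red) or fell (blue) at a limma adjusted p under 0.05 (x axis), for the unnamed suffixed ORFs, their subsets by length and position, sets that share part of the rule, and all genes (y axis, n in brackets). Falls reach 31.9% in ORFs of up to 150 bases and 50% in the 12 next to a ribosomal protein gene, against 8.35% of all genes, while ORFs near chromosome ends have more rises (33.3%) than falls (11.1%).

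Changes of the ORFs and of the genes next to them were loosely related. In 213 pairs of an unnamed suffixed ORF and a measured adjacent gene outside the list, Pearson's r between the changes was 0.23 and Spearman's rho 0.24. For 118 pairs on the same strand they were 0.32 and 0.36, and for 95 pairs on opposite strands 0.09 and 0.08. These are correlations across genes of the same 6 arrays, an ORF with 2 measured neighbours enters with each, and genes are not independent replicates. Both genes rose in 6 pairs, both fell in 7, and calls were opposite in 2. In 34 of the 43 pairs whose ORF fell, the neighbour was not called, where 4225 of all 5449 genes were not called either.

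Of the 40 called ORFs, 31 have a measured like-numbered gene. That gene was called in the same direction for 9, in the other direction for 1 (YDR034C-A with LYS14) and was not called for 21. Among all genes 22.5% were called. YIL134C-A fell by 0.20 (limma adjusted p = 0.042), and the like-numbered FLX1, a mitochondrial flavin carrier gene, fell by 0.31. FLX1 is not adjacent to it. The measured adjacent gene, VHS2 on the same strand, rose by 0.20 (limma adjusted p = 0.034). The call of YIL134C-A was lost under 13 of 18 alternatives (adjusted p up to 0.16). Among them were the omission of any 1 deletion array or of wild-type replicate 1 or 3. YIL134C-A, FLX1 and VHS2 were named after their values were seen.

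**Figure D5:**
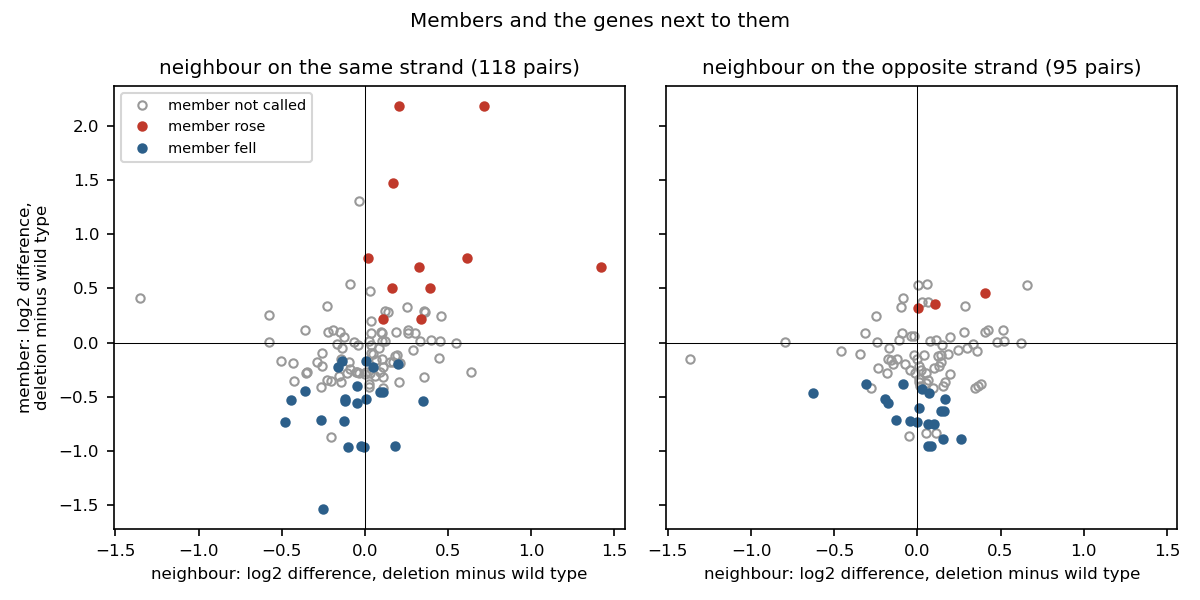
Log2 difference (deletion minus wild type) of each unnamed suffixed ORF (y axis) against that of an adjacent gene (x axis), on the same strand (left, 118 pairs) and on the opposite strand (right, 95 pairs), with red for ORFs that rose, blue for those that fell and open grey for those not called. Most blue points lie near a neighbour change of 0, and the pair of YER053C-A with PIC2 (2.18 and 0.72) lies at the top of the left panel.

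None of the 5 brightest ORFs was called. YDR524C-B, of 201 bases, was the brightest of all, at 14.78, 14.76 and 14.78 on deletion arrays and 14.74, 14.73 and 14.61 on wild-type arrays. Its difference of 0.08 did not pass (95% interval -0.04 to 0.20). The Ty frame YDR316W-B was 2nd at a mean of 14.53, and YCR024C-B, of 267 bases, was 3rd at 14.05 with a difference of 0.08 (95% interval -0.03 to 0.20). YBL100W-B and YER138W-A followed at 13.81 and 13.77, both on _s_at probe sets, with differences of -0.08 and -0.03.

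The largest difference that was not called came from 1 array. YGL006W-A, of 111 bases, was at 10.35, 6.16 and 6.56 on deletion arrays and 6.62, 6.59 and 5.95 on wild-type arrays. The difference of 1.30 (SE 1.10, adjusted p = 0.42) was -0.03 without deletion replicate 1. YBR221W-A likewise stood at 7.05 on deletion replicate 1 and between 4.99 and 5.77 on the other 5 arrays; it was named after its values were seen.

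Other large differences missed the threshold. YDR524W-C was at 9.78, 10.55 and 10.04 on deletion arrays and 10.83, 10.70 and 11.43 on wild-type arrays, and did not overlap (-0.86, adjusted p = 0.060). YOR072W-B was at -0.87 (adjusted p = 0.16), and its call was gained without wild-type replicate 3, the only wild-type array within the range of the deletion arrays, at 8.24. YOL038C-A, at -0.84 (adjusted p = 0.087), also passed without that array. YHR214C-E, the neighbour of YHR214C-D, was at 0.66 (adjusted p = 0.20), with wild-type replicate 1 above the lowest deletion array.

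Genes that act on Ty elements or on short and unstable transcripts were counted in lists drawn from general knowledge. Of 17 activators of Ty transcription 4 rose and 1 fell, with a median of 0.14. GCR1, the partner of Gcr2, fell by 0.95 (adjusted p = 0.0014), and TEC1, which binds Ty1 with Ste12, rose by 0.39 (adjusted p = 0.0027). Of 8 regulators of Ty1 transposition 1 rose, RTT101 (a cullin), by 0.36. Nuclear exosome and early termination factors were mostly not called: of 14, DIS3, the catalytic exosome subunit, rose by 0.15 and the helicase gene MTR4 fell by 0.25, with a median of 0.05.

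Decay and silencing factors moved little. Of 11 genes of nonsense-mediated and other mRNA decay 2 rose (EBS1 by 0.23 and XRN1, the 5'-3' exonuclease gene, by 0.14) and 0 fell, with a median of 0.04. Of 10 genes of ribosomal DNA silencing and RNA polymerase I 0 were called by limma, with a median of -0.02. Of 15 named genes for small membrane proteins 1 rose, SNA4 by 0.34, with a median of 0.14. Called genes in these lists are to be read beside the 22.5% called among all genes.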

How the data were processed

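The authors deposited 1 table of probe-set intensity values on a linear scale, inferred from the values themselves, for 6 arrays with column medians between 233 and 260. R 2.8.0, affy and RMA were used, per the submitters' processing notes. RMA equalises the arrays' intensity distributions, so changes are relative to the bulk of the signal. Which genome build the probe annotation rests on is not stated.

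Here log2 of each intensity was taken with no pseudocount or filter. Of the probe sets, 5498 matched 1 S. cerevisiae gene in RefSeq (R64), used for names, lengths and neighbours, which left 5449 genes after keeping the brightest probe set. limma 3.58.1 in R 4.3.3 (lmFit, eBayes, no covariates) compared 3 deletion with 3 wild-type arrays, two-sided, with Benjamini-Hochberg adjustment over all genes and calls at an adjusted p under 0.05. "Rose" and "fell" mean called. Precision is limited by the number of arrays. The test was run on simulated data first. Where 1 group lay wholly under background, the fold is a bound, computed with each array's lowest usable level, the background, in place of lower values.

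Named genes were GCR2, the 10 largest rises and falls, the 5 brightest ORFs, the 5 largest differences not called, called ORFs on shared probe sets or crossing background, like-numbered partners of the top 3 each way, and up to 2 called genes per list. Other neighbours were chosen after their values were seen. The members, lists and alternatives were chosen with earlier results of these data known. Ty frames were to be picked by annotation text, which the tables used here do not hold, so length over 800 bases was used.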

Additional observations from a re-analysis of the deposited data

Results flagged for a closer look

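YLL066W-B has 3 probe sets, and the comparisons use the brightest. A second one, of the _x_at type, also lay higher on all deletion arrays, at 8.997, 8.79 and 8.87 against 8.45, 8.57 and 8.35 on wild-type arrays, a difference of 0.43 (limma adjusted p = 0.016). The third, of the _at type, was at 0.23 (adjusted p = 0.16).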

How the results depend on the processing

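Of the 40 called ORFs, 6 kept their call under every alternative that could test them (YER053C-A, YBL005W-A, YMR315W-A, YER188C-A, YIL082W-A and YLR154C-H), 5 lost it under 1, and 9 lost it under 9 or more of at most 18, changes of the threshold aside. This tally is uneven by direction, because centring on the poly-A controls called 4943 of all genes higher. That centring ended the calls of 27 ORFs, all of them falls. Among the 6 kept, only YLR154C-H is a fall. With the replicate number as a block 10 rose, 14 fell and 733 of all genes were called. Pairing was checked on deviations from each gene's group mean, not on whole arrays. For same-numbered arrays these deviations correlated at 0.53, -0.17 and -0.44. Deletion replicate 2 correlated best with wild-type replicate 3 (0.58), and deletion replicate 3 with wild-type replicate 2 (0.49). Only deletion replicate 1 correlated best with its own number, and the numbers are not taken to pair the samples. Leaving out 1 array at a time gave 6 to 11 rises, 8 to 27 falls and 406 to 1225 calls over all genes, with changes of -0.13 to 0.084 for YER138W-A, -0.029 to 2.07 for YGL006W-A and -0.19 to 0.038 for YBL100W-B. Without deletion replicate 1 and wild-type replicate 3 these were 6, 12 and 328, with YBL100W-B at 0.11, YER138W-A at 0.14 and YGL006W-A at -0.25. An adjusted p under 0.01 left 6 rises, 4 falls and 347 calls over all genes (224 rises and 123 falls). A 2-fold minimum left 2, 1 and 51 (24 rises and 27 falls over all genes). An unmoderated statistic kept 18 of the 40 calls and left 10 falls, against 287 falls and 600 rises over all genes. Centring on the poly-A controls, which were lower on deletion arrays, moved the median of all genes to 0.90 and that of the ORFs to 0.73, with 90 rises, 1 fall and 4952 calls. It turned 86 of the 91 ORFs with a lower mean to higher, among them YBL100W-B 0.80, YER138W-A 0.85, YCL021W-A 0.56, YPR159C-A 0.49, YNL162W-A 0.45, YBL071C-B 0.35, YBR196C-A 0.34, YHL015W-A 0.32, YHL009W-A 0.27, YMR272W-B 0.25, YLR264C-A 0.16, YOR008C-A 0.15, YHR022C-A 0.14, YKL183C-A 0.12, YDR034C-A 0.11, YOL038C-A 0.037, YDR524W-C 0.012 and YOR072W-B 0.0033. The causes of these differences were not tested. Signal over background limits the 31 ORFs under background on all arrays.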

Other observations

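Second probe sets disagreed for some ORFs. For YLR157W-E, in the ribosomal DNA region, the _s_at probe set used was at 0.24, whereas the _at probe set was under background on every array, at 3.68, 4.28 and 4.14 on deletion arrays and 5.44, 5.72 and 5.89 on wild-type arrays, a difference of -1.65 (limma adjusted p = 0.0039). For YOR072W-B the _s_at probe set was at -0.87 and the _at probe set at 0.11, neither called. For YGR174W-A both probe sets passed, the _x_at one at -0.95 and the _at one at -1.01 (adjusted p = 0.039). For YOL166W-A both stood at 0.04, among the dimmest values measured.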
